A study of Mus musculus with 30 samples.

Results

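The matrix metalloproteinase (Mmp) cluster of mouse chromosome 9 holds 10 neighbouring genes, Mmp13, Mmp12, Mmp1b, Mmp3, Mmp1a, Mmp10, Mmp8, Mmp27, Mmp20 and Mmp7, out of 55450 annotated genes. The 10 genes were taken by name, and peaks of acetylated lysine 27 on histone H3 (H3K27ac) were taken inside the cluster and within 300 kb of its ends. A gene was said to have a start-site peak when a peak lay within 2.5 kb of any of its annotated start sites. In mm10 (GRCm38) the cluster ran from chr9:7272514-7699585, a length of 427.1 kb, and carried 15 annotated start sites. Mmp1b lay on the minus strand and the other members on the plus strand, and Mmp1a was annotated as a polymorphic pseudogene.

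The series holds 30 samples in 12 groups from 2 lines of mouse lung adenocarcinoma cells, CK1750 and Tnm2, which were grown in serum-supplemented medium and received either the vehicle DMSO or UNC0638 at 1 µM. UNC0638 blocks G9a and Glp, enzymes that methylate lysine 9 of histone H3. The peak lists of the 4 H3K27ac groups were used, and the labels give these groups 9 samples. In CK1750 there were 3 with DMSO, which carry 2 replicate numbers, and 2 with UNC0638, which carry the same replicate number. In Tnm2 there were 2 with each treatment. The 21 samples of dimethylated lysine 9 on histone H3 (H3K9me2) and of input DNA were not analysed here. Each group comes from a single cultured line and not from separate tumours. The deposited data hold 1 merged peak list per group, so values have no replicate error and differences between the groups carry no test.

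Matrix metalloproteinases are zinc-dependent endopeptidases that are made as inactive proenzymes and cut collagens, proteoglycans and other proteins of the extracellular matrix once activated. The cluster holds genes of the collagenase group (Mmp1a, Mmp1b, Mmp8 and Mmp13), the stromelysin genes Mmp3 and Mmp10 and the macrophage elastase gene Mmp12. It also holds the genes of matrilysin (Mmp7) and of the tooth enamel protease enamelysin (Mmp20), and Mmp27. The group is a family name and does not state what each product cuts. Several of these genes are known for promoters with a TATA box and a site for AP-1, the Fos and Jun dimer that responds to growth factor and Ras signalling. H3K27ac is found at active promoters and enhancers, whereas H3K9me2, the product of G9a and Glp, is found over inactive chromatin. The study asked which genes respond to inhibition of G9a and Glp, and Mmp10 and Mmp13 were among the genes it followed.

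The promoters of the members are shown first, because the peaks below are read against them. The 250 bases before the RefSeq start (GRCm38.p6, plus strand, 5′ to 3′) are printed for Mmp13, the member with a peak, for the stromelysins Mmp3 and Mmp10 and for Mmp7, which carried an AP-1 motif, and for Mmp20, which carried none. Capitals mark the AP-1 motif TGAGTCA or its reverse complement TGACTCA, and the TATA motif TATAAA. The windows are chr9:7272264-7272513 for Mmp13, chr9:7445572-7445821 for Mmp3, chr9:7502092-7502341 for Mmp10, chr9:7691840-7692089 for Mmp7 and chr9:7627981-7628230 for Mmp20.
Mmp13: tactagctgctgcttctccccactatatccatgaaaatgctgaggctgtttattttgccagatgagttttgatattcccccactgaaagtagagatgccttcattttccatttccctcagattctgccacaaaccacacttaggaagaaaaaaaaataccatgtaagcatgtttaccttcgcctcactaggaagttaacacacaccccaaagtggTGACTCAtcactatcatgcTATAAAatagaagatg
Mmp3: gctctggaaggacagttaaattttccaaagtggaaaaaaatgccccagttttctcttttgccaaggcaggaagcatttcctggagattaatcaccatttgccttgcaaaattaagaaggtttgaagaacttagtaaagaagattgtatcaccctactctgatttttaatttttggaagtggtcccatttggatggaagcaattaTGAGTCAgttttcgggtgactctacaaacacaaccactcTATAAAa
Mmp10: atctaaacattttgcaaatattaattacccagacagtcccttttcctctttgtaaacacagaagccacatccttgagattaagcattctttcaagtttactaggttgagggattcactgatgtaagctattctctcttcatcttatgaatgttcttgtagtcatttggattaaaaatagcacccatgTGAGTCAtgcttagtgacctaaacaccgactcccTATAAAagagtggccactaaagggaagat
Mmp7: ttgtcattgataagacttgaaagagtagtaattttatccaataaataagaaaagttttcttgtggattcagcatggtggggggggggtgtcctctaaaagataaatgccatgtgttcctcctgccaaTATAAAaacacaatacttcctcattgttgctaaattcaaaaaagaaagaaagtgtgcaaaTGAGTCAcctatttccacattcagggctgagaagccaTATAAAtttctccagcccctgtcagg
Mmp20: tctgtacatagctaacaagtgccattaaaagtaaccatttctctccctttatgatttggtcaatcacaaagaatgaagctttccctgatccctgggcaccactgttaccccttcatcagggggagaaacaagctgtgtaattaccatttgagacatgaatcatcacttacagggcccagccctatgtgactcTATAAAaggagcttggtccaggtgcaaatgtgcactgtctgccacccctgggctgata

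RefSeq gave 12 promoters for the 10 members, with 2 each for Mmp12 and Mmp7, and each promoter was read from 250 bases before to 50 bases after the start. The motif TGAGTCA, searched on both strands, was present in 7 of the 12 promoters, 1 each of Mmp13, Mmp12, Mmp1b, Mmp3, Mmp1a, Mmp10 and Mmp7. It was present in 4.66% of all 21262 protein-coding promoters. Its first base lay between -93 (Mmp1b) and -35 (Mmp13), counted from the start with negative numbers before it. In each of the 7 promoters a TATAAA followed on the downstream side, with 19 to 48 bases between the first bases of both motifs (median 39). The start is that of the annotation, and in Mmp12 the TATAAA began 4 bases after it. TATAAA on either strand was found in 9 of the 12 promoters, against 12.6% of all promoters. The Ets core GGAA was found in 12 of 12, but this short motif was in 95.7% of all promoters. Mmp8, Mmp27 and Mmp20 held no TGAGTCA within the window. These matches describe the sequence only, and members with related sequences are not independent of each other.

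The members' promoters were poor in CpG dinucleotides. The observed over expected CpG ratio ranged from 0.0 to 0.35 with a median of 0.09, against a median of 0.57 over all promoters. The 9 promoters of the flanking genes had a median of 0.69, and the 9 promoters matched for 8 of 13 dispersed Mmp genes had a median of 0.66. When all promoters were split into 4 equal classes by the ratio, 8 of the 12 members' promoters fell in the lowest class and 4 in the next. In that lowest class 9.65% (DMSO) and 9.46% (UNC0638) of promoters had a peak within 2.5 kb in CK1750, and 11.5% (DMSO) and 8.33% (UNC0638) in Tnm2. In the next class, which held the other 4, the shares were 30.4%, 29.2%, 30.8% and 23.2% in the same order. In the highest class they were 84.2%, 84.1%, 81.8% and 72.5%. Within the lowest class TGAGTCA was present in 7.58% and TATAAA in 24.1% of promoters.

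**Figure D1:**
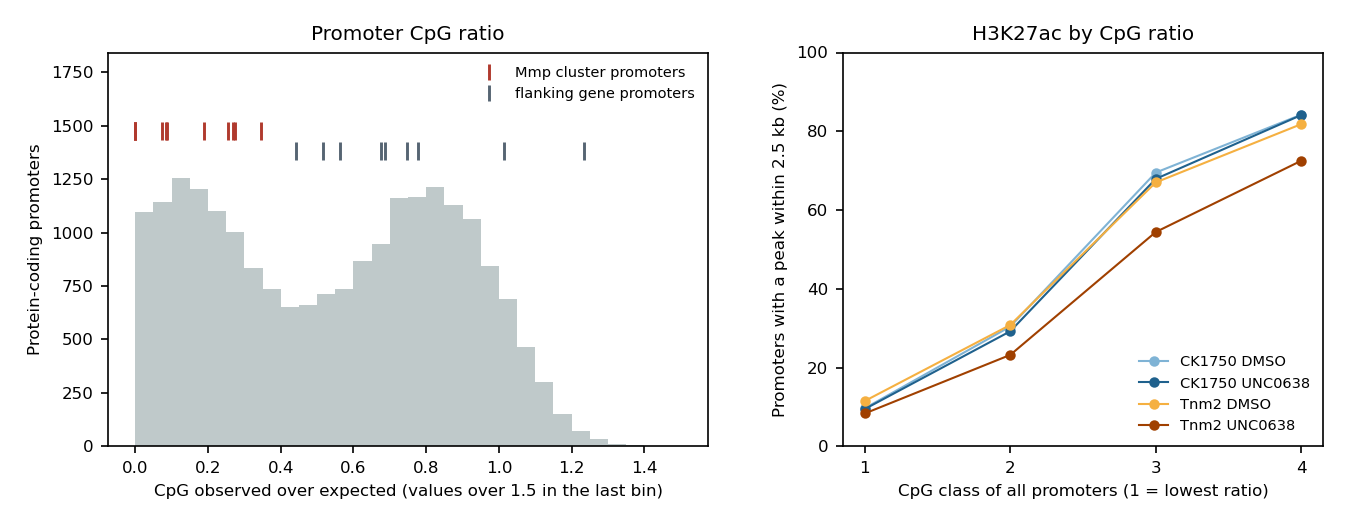
Left, histogram of the observed over expected CpG ratio of all 21262 protein-coding promoters (y axis, number of promoters), with ticks for the 12 promoters of the Mmp cluster and the 9 of the flanking genes. Right, the share of promoters with an H3K27ac peak within 2.5 kb in each of the 4 classes of the ratio. There is 1 line per peak list. The members' ticks lie between 0.0 and 0.35, in the lowest class and the next, which have the lowest shares in each list.

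The lists held 27367 (DMSO) and 24601 (UNC0638) peaks in CK1750, and 30641 (DMSO) and 18794 (UNC0638) in Tnm2. Each peak has a score, which is -10 log10 of its P value, and the lists end at a score of 50. The score grows with depth, which is unknown, so a score is read only against the other scores of its own list, as a percentile, and scores of different lists are not compared. Start-site peaks were present in each list for 4 of 6 epithelial markers (Cdh1, Krt8, Krt18 and Krt19, but not Epcam or Cldn4) and for 4 of 4 lung lineage markers (Nkx2-1, Foxa1, Foxa2 and Sftpc). Of 6 markers of leukocytes, endothelium and fibroblasts, 1, 1, 2 and 1 had one in the order given for the lists. These were Col1a1 in the lists other than Tnm2 with UNC0638 and Pecam1 in both Tnm2 lists.

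No member had a start-site peak in either CK1750 list or in Tnm2 with DMSO. In Tnm2 with UNC0638, 1 of the 10 had one, the collagenase gene Mmp13. The share of all 21951 protein-coding genes with a start-site peak was 50% with DMSO and 49.1% with UNC0638 in CK1750, and 49.4% with DMSO and 41.3% with UNC0638 in Tnm2. Thus 9 of the 10 members were without a start-site peak in each of the 4 lists, as were 46.0% of protein-coding genes. Among promoters of the lowest CpG class, which held 8 of the 12 members' promoters, 86.4% had no peak within 2.5 kb in any list, and among those of the next class, which held the other 4, 64.3%. Over all annotated genes, a class that includes Mmp1a, the shares in the same order were 26.8%, 26.3%, 26.9% and 22.0%. The bodies of the members were empty too, but a gene body includes a start site, so this count is not independent of the one above. No peak overlapped any of the 10 genes from start to end in any list, whereas 51.3%, 50.3%, 50.8% and 42.5% of protein-coding genes were overlapped in the order given above. The share of gene bodies with a peak was not split by CpG class.

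**Figure D2:**
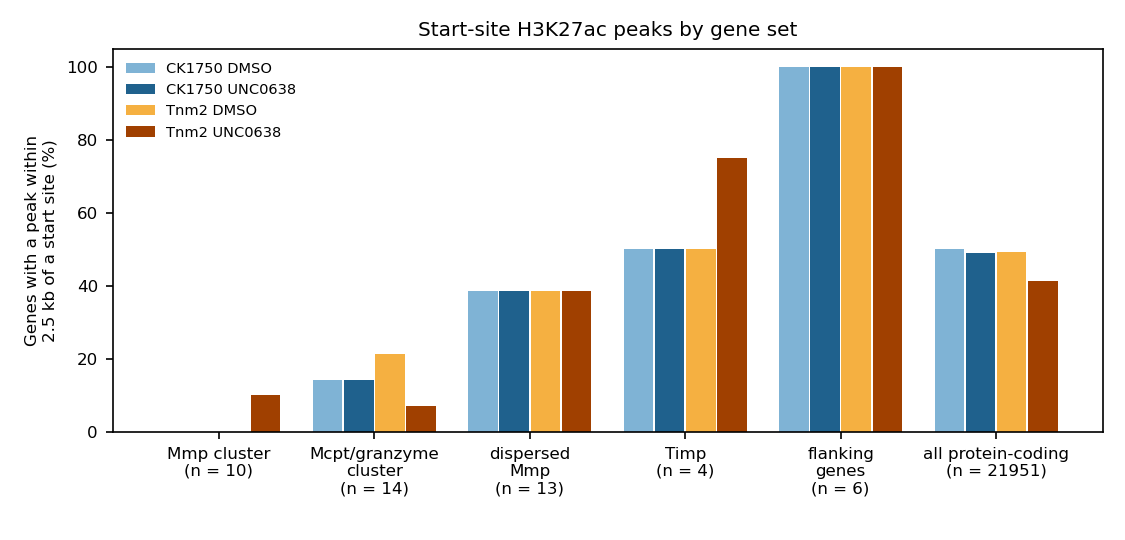
Share of genes (y axis, percent) with an H3K27ac peak within 2.5 kb of a start site in each of the 4 peak lists, for the Mmp cluster, the comparison gene sets and all protein-coding genes; n is the number of genes. The Mmp cluster is at 0.0% in 3 lists and at 10.0% in Tnm2 with UNC0638, where the bar is Mmp13 alone.

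The Mmp13 peak in Tnm2 with UNC0638 covered chr9:7271796-7272221, 426 bp that ended 293 bp before the start of the gene. Its score of 51.28 lay at percentile 1.77 of its list, just above the cutoff of 50. The lists of Tnm2 with DMSO and of both CK1750 treatments had no peak there, and the nearest peak to Mmp13 in them was 86.8 to 86.9 kb away. The peak ended before the first base of the promoter window printed above and held 0 TGAGTCA and 1 TATAAA. Its GC content was 41.5% and 35.0% of its bases were masked as repeats. The 300 bases at its centre (chr9:7271859-7272158, plus strand) are shown because this was the only peak at a start site of a member. No letters are in capitals.
Peak before Mmp13: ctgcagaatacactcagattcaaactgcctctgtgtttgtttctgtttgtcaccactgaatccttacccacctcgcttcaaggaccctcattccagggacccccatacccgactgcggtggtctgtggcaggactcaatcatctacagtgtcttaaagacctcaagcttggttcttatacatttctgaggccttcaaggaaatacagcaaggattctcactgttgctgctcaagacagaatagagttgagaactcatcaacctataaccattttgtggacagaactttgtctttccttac

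A start-site peak with UNC0638 and none with DMSO was uncommon in Tnm2 as a whole. Such a change was found for 131 protein-coding genes (0.597%), against 1919 (8.74%) with a peak in DMSO and none in UNC0638. The Tnm2 list with UNC0638 was also the shorter one, with 18794 peaks against 30641 with DMSO, and depth is unknown. The part of list length in these numbers was not tested. In CK1750, 1.51% of genes had one with UNC0638 only and 2.42% with DMSO only, and no member was among either. Mmp13 belonged to 43 protein-coding genes (0.196%) with a start-site peak in Tnm2 with UNC0638 and in no other list. Of these, 41 had a score under 100, the median was 63.5, and 4, Mmp13 included, had a score at or under that of Mmp13. The genes of this pattern with the nearest scores were C130050O18Rik (51.42), Sectm1b (50.71), Nradd (50.69), Gm20547 (50.03) and Asic1 (52.66). Weak peaks of this list were often found elsewhere. Of its 1595 peaks with a score from 50 to 56.4, within 10% of that of Mmp13, 1246 (78.1%) overlapped a peak of another list. The Mmp13 peak was not one of them.

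Within the borders of the cluster there was 1 acetylated site, between Mmp27 and Mmp20 and outside any gene. It was called in CK1750 with UNC0638 (chr9:7594965-7595407, 443 bp, score 60.58, percentile 10.3 of its list) and in Tnm2 with DMSO (chr9:7594779-7595488, 710 bp, score 123.64, percentile 45.5). Both peaks shared 443 bp. CK1750 with DMSO and Tnm2 with UNC0638 had no peak there, so the site was called with the inhibitor only in one line and with the vehicle only in the other. The site lay 12.9 to 13.1 kb past the end of Mmp27 and 32.7 to 32.8 kb before Mmp20. The nearest annotated start was that of Gm47616, at 4.09 kb in CK1750 and 4.01 kb in Tnm2, which is beyond the start-site window. Of 2445 peaks of CK1750 with UNC0638 with scores from 54.5 to 66.6, 67.0% overlapped a peak of another list, as did 81.6% of 2256 peaks of Tnm2 with DMSO with scores from 111 to 136.

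The sequence of the site held 0 TGAGTCA and 0 TATAAA in either peak. Its GC content was 49.4% over the CK1750 peak and 48.3% over the Tnm2 peak, and 43.8% and 32.7% of the bases were repeat-masked. The 300 bases at its centre (chr9:7595037-7595336, plus strand, no capitals) are shown because it was the only acetylated site within the boundaries of the cluster.
Site between Mmp27 and Mmp20: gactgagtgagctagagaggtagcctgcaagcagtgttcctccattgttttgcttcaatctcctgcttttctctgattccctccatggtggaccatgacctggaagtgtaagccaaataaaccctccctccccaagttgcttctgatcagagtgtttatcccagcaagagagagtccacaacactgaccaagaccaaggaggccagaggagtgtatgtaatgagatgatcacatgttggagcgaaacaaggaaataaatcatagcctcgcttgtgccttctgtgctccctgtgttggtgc

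The cluster therefore held 0 peaks with DMSO and 1 with UNC0638 in CK1750, and 1 with DMSO and 0 with UNC0638 in Tnm2, where the Mmp13 peak lies just outside the border and is not counted. In the same order this was 0.0, 2.34, 2.34 and 0.0 peaks per Mb, against 10.9, 9.69, 11.0 and 6.55 per Mb on chromosome 9 and 10.3, 9.29, 11.6 and 7.1 per Mb over the genome. Repeats covered 47.8% of the cluster and 32.0% of chromosome 9, and the share of G and C was 40.8% and 42.7%. No base of the cluster was undetermined. Windows of 2.5 kb on each side of the members' starts had 0 near-identical copies elsewhere. The longest similarity was between Mmp1a and Mmp1b, whose windows aligned to each other over 40.8% and 37.1% of their length at 83.7% and 86.3% identity. The part of repeats in the low number of peaks was not tested.

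**Figure D3:**
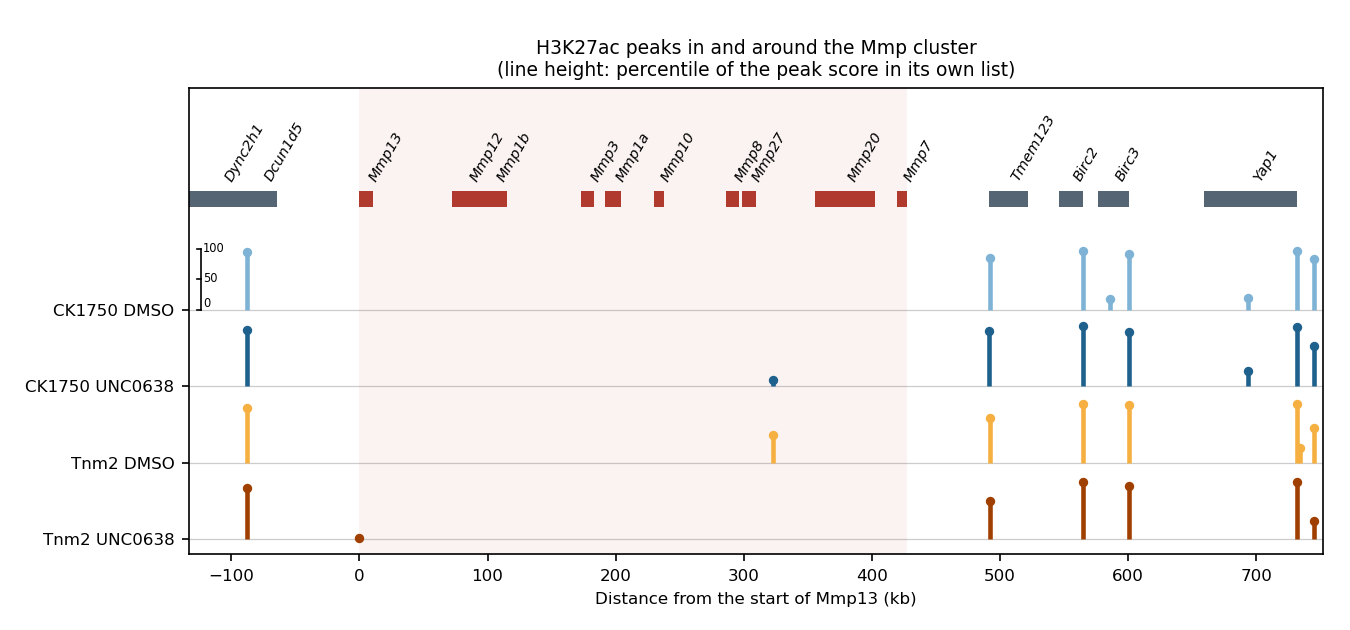
Map of the cluster and its flanks, with the distance from the start of Mmp13 in kb on the x axis, the Mmp genes in red, the flanking genes in grey and 1 lane per peak list. Each line is an H3K27ac peak, and its height is the percentile of its score in its own list (scale from 0 to 100 at the left of the top lane); the shaded cluster holds 1 site in CK1750 with UNC0638 and Tnm2 with DMSO, with the Mmp13 peak of Tnm2 with UNC0638 at its left border.

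The stretch without a peak that held most members was longest in CK1750 with DMSO. There it measured 578.4 kb (chr9:7185681-7764030), held all 10 members and reached from the promoter shared by Dync2h1 and Dcun1d5 to that of Tmem123. In CK1750 with UNC0638 it measured 409.3 kb and in Tnm2 with DMSO 409.1 kb. In both of these it ended at the site between Mmp27 and Mmp20 and held 8 members, without Mmp20 and Mmp7. In Tnm2 with UNC0638 it measured 491.8 kb and held the starts of all 10, from the right edge of the Mmp13 peak to Tmem123. The median distance between neighbouring peaks was 16.6, 18.2, 13.1 and 25.5 kb in the 4 lists. Of all distances between neighbouring peaks, 3.42% (DMSO) and 5.05% (UNC0638) in CK1750, and 3.98% (DMSO) and 5.89% (UNC0638) in Tnm2, were longer than the stretch. When the 4 lists were joined, 322.6 kb from Mmp13 to Mmp27 (chr9:7272222-7594778) stayed without a peak, and 4.08% of distances in the joined lists were longer. These shares count distances and not bases, and long stretches take up more of the genome than their number gives. The stretch was also taken for its genes, so the shares do not state how rarely a gene lies in so long a stretch.

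The distance from each member to its nearest peak followed the position in the cluster, and the values are given for CK1750 (DMSO, then UNC0638) and then for Tnm2 (DMSO, then UNC0638). Among the genes of the collagenase group, Mmp13 at the left end was 86.8, 86.9, 86.8 and 0.293 kb from a peak. Mmp1b was 202.4, 202.4, 202.3 and 115.8 kb away. Mmp1a was 278.5, 130.8, 130.6 and 191.9 kb away, and its first value was the longest of any member in any list. Mmp8, the neutrophil collagenase, was 205.6, 36.5, 36.3 and 205.6 kb from a peak. The low values of Mmp8 belong to the lists with the site between Mmp27 and Mmp20.

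The stromelysin genes lay in the middle of the cluster. Mmp3 was 260.1, 149.1, 149.0 and 173.6 kb from the nearest peak. Mmp10, which the study followed after inhibition of G9a and Glp, was 261.7, 92.6, 92.4 and 230.1 kb from the nearest peak. In each list the nearest peak to Mmp10 was farther away than the nearest peak to Mmp8 or to Mmp27, its neighbours towards the right end.

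Mmp12, the elastase gene, was 158.7, 158.7, 158.7 and 72.2 kb from a peak. Mmp27 was 192.6, 23.5, 23.3 and 192.6 kb away, counted from the nearest of its 3 annotated starts. Mmp20 was 135.8, 32.8, 32.7 and 135.8 kb away. Mmp7 at the right end was 71.9, 71.3, 71.9 and 71.9 kb away, the only member whose distance stayed within 1 kb over the lists. The median over the 10 members was 197.5 kb with DMSO and 89.75 kb with UNC0638 in CK1750, and 89.6 kb with DMSO and 154.7 kb with UNC0638 in Tnm2. Members share the same few nearest peaks, so their distances are not independent values. The lower medians belong to the lists with the site between Mmp27 and Mmp20. In CK1750 with UNC0638 that peak had a score of 60.58 and is lost at a minimum score of 100.

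**Figure D4:**
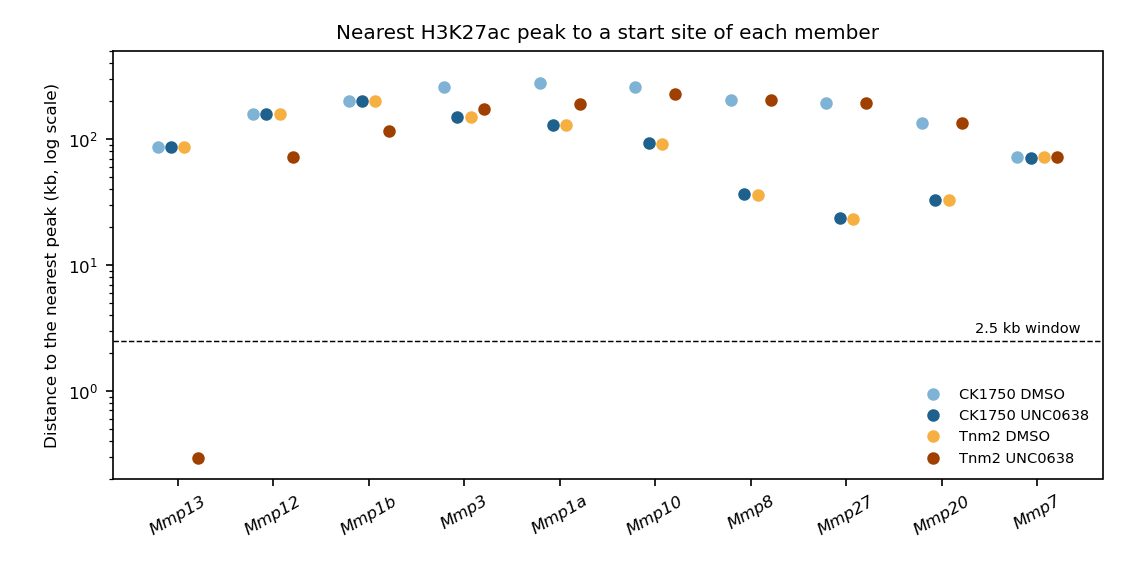
Distance in kb (log scale) from the nearest annotated start of each member, ordered along the chromosome, to the nearest H3K27ac peak, 1 point per peak list. The dashed line marks the 2.5 kb window, and the Mmp13 point of Tnm2 with UNC0638 (0.293 kb) is the only one below it, with the other points between 23.3 and 278.5 kb.

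The cluster was bordered by acetylated promoters on both sides in each list. The nearest peak to the left, leaving aside the Mmp13 peak of Tnm2 with UNC0638, covered the starts of Dync2h1, a heavy chain of the dynein that works in cilia, and Dcun1d5. It lay 86.8 to 87.0 kb from the cluster. In CK1750 its score was 2045.4 with DMSO (percentile 95.1) and 1364.11 with UNC0638 (percentile 91.8). In Tnm2 it was 761.01 with DMSO (percentile 89.2) and 341.18 with UNC0638 (percentile 83.6). The nearest peak to the right was at Tmem123, which encodes a transmembrane protein, 63.8 to 64.4 kb from the cluster. Its score lay at percentile 84.1, 90.5, 72.9 and 61.9 in the same order.

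Farther to the right, the apoptosis inhibitor genes Birc2 and Birc3 had peaks over their starts in each list. The Birc2 peak lay 136.4 to 136.5 kb from the cluster, with percentiles of 96.9, 98.1, 96.5 and 93.8. The Birc3 peak lay 172.5 to 172.7 kb from it, with percentiles of 91.1, 88.5, 94.0 and 87.0. A weak second Birc3 peak in an intron (score 63.7) was called only in CK1750 with DMSO. A weak peak at a start inside Yap1, the gene of a coactivator of the Hippo pathway, was called in both CK1750 lists (percentile 24.2 with UNC0638 and lower with DMSO) and not in Tnm2. The main Yap1 promoter lay just outside the 300 kb limit, at 303.1 to 303.8 kb, with percentiles of 96.6, 96.3, 95.5 and 92.6. In total 6, 5, 4 and 4 start-site peaks were found in the flanks of 300 kb. The Mmp13 peak, which lies 293 bp outside the cluster, is not counted and would make the last number 5. At a score of at least 100 the number was 4 in each list. The differences between these counts thus rest on the weak Birc3 and Yap1 peaks. Counting the main Yap1 promoter, 6 of 6 flanking protein-coding genes had a start-site peak in each list, a pattern shared by 39.2% of protein-coding genes. The median CpG ratio of the flanking promoters, 0.69, lay in the class from 0.57 to 0.83. In that class 69.5%, 67.9%, 67.0% and 54.4% of all promoters had a peak within 2.5 kb in the same order.

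Of 13 Mmp genes dispersed elsewhere in the genome, 5 (38.5%) had a start-site peak in each list, although not the same 5. Over all protein-coding genes the shares were 50% (DMSO) and 49.1% (UNC0638) in CK1750, and 49.4% (DMSO) and 41.3% (UNC0638) in Tnm2. Mmp14, the membrane collagenase that activates Mmp2, had one in each list, with best scores at percentiles 77.8 (DMSO) and 68.9 (UNC0638) in CK1750 and 17.7 (DMSO) and 19.8 (UNC0638) in Tnm2. Mmp23, Mmp24 and Mmp28 also had one in each list. Mmp11 had one in both CK1750 lists and in Tnm2 with DMSO. Mmp19 had a single one, in Tnm2 with UNC0638, whose score of 69.12 lay at percentile 22.1, the same pattern of lists as Mmp13. The gelatinase genes Mmp2 and Mmp9 had none in any list, nor had Mmp15, Mmp16, Mmp17, Mmp21 and Mmp25.

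Of the 4 Timp genes, which encode inhibitors of metalloproteinases, 2, 2, 2 and 3 had a start-site peak. The share over all protein-coding genes was 41.3% to 50%. Timp2 had one in each list, with best scores at percentiles 78.3, 87.3, 78.3 and 74.4. Timp1 had one near the cutoff in both CK1750 lists (percentiles 8.49 and 8.06) and in Tnm2 with UNC0638 (percentile 8.08). Timp3 had one in Tnm2 with DMSO (percentile 56.2) and with UNC0638 (percentile 36.0) and none in CK1750, and Timp4 had none.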

How the data were processed

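The authors sequenced chromatin immunoprecipitated for H3K27ac from CK1750 and Tnm2 cells. Per the labels and the methods, Bowtie2 (mapping to mm10), SAMtools and MACS 1.4.2 were run, the last with a P value limit of 1e-05 and its other settings at default. The deposited lists give, per peak, a position and a score, which is -10 log10 of the P value (50 at the cutoff). The labels name 1 merged list per group, and which libraries entered it, whether input was the control and the depth are not stated. Samples were grouped by line, treatment and mark as labelled.

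Positions were written 1-based and set against start sites of all transcripts of GENCODE M 21. The window was 2.5 kb and the flank 300 kb. No test was made, since each group has 1 list, and spread between samples could not be measured. The members, the gene lists and the choices were made with earlier results of these data known. Named were the members, the protein-coding genes with a start within 300 kb of the cluster, the dispersed Mmp and Timp genes, other genes of pericellular proteolysis, mast cell protease and granzyme genes, the 5 genes most like a member with a peak in list pattern and score, and the 3 peak-free stretches with most protein-coding genes. Promoter sequences came from RefSeq (GRCm38.p6), and 2012 of 2012 compared with the genome were identical. Similar copies were sought with minimap2 2.31 (at least 80% covered at 95% identity). Finding peaks near starts was tested on simulated lists, with 1200 of 1200 planted peaks found. Alternatives were windows of 1, 5 and 10 kb, flanks of 100 and 500 kb, a score of at least 100, equal numbers of the highest-scoring peaks (18794 per list), the gene's 5′ end only, start-site peaks only, and a promoter of 1000 bases before to 100 after the start. Python 3.11.15, numpy 2.4.6, pandas 2.3.3 and matplotlib 3.10.9 were used.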

Additional observations from a re-analysis of the deposited data

Results flagged for a closer look

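As reported above, the change with UNC0638 had opposite directions in the 2 lines for 2 quantities. The number of peaks inside the cluster changed by 1 in CK1750, where the site between Mmp27 and Mmp20 was called with UNC0638 and not with DMSO. In Tnm2 it changed by -1, since the same site was called with DMSO and not with UNC0638. The length of the stretch without a peak around the members changed by -169.0 kb in CK1750 and by 82.7 kb in Tnm2. In CK1750 the change is the presence of that site. In Tnm2 it is the absence of the site together with the Mmp13 peak of score 51.28 at the other end. With 1 list per group neither difference was tested. Both rest on few peaks, and the opposite directions did not hold under each alternative. With borders widened by 2.5 kb, so that the Mmp13 peak counted as inside, CK1750 gained 1 peak and the number in Tnm2 changed by 0. With start-site peaks only, the number changed by 0 in both lines, and the stretch in CK1750 changed by -0.636 kb and that in Tnm2 by -86.5 kb. At a minimum score of 100 or at equal peak numbers, the CK1750 lists differed by 0 peaks and the Tnm2 lists by -1. Under both settings the stretch in CK1750 changed by -0.636 kb, and that in Tnm2 changed by 169.5 and 82.7 kb.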

How the results depend on the processing

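No paired analysis was possible because the files hold 1 merged list per group, and for the same reason no sample could be left out. Of 77 alternative values for 17 results, 60 stayed close to the reported value and 17 moved. Some of the 60 could not have moved, so the tally does not measure stability. Equal peak numbers leave the shortest list, Tnm2 with UNC0638, unchanged, and stricter settings cannot add a peak to a result of 0. The tally also includes the margin chosen after seeing the data. With a score of at least 100, members with a start-site peak in Tnm2 with UNC0638 numbered 0 instead of 1 and the stretch without a peak grew to 578550 bp. In CK1750 with UNC0638 the number of peaks inside the cluster was 0, and the stretch 577714 bp, at a minimum score of 100, at equal peak numbers and with start-site peaks only. In Tnm2 with DMSO, start-site peaks only gave 0 peaks inside the cluster and a stretch of 578316 bp. A margin of 2.5 kb around the cluster, chosen after seeing the data, gave 1 peak inside it in Tnm2 with UNC0638. A flank of 100 kb left 2 start-site peaks in each list, and a flank of 500 kb gave 10 in CK1750 with DMSO. At a score of at least 100 each list had 4 in the flanks of 300 kb. For CK1750 this was a fall from 6 (DMSO) and 5 (UNC0638), which the tally counts as close. The median CpG ratio of the members was 0.13 from 1000 bases before to 100 after the start. The weak peaks at Mmp13 and, in CK1750, between Mmp27 and Mmp20 thus depend on the score limit, and depth, which is unknown, limits what an absent peak means. A list without a peak shows only that no region passed the cutoff.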

Other observations

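Of 6 other genes of proteolysis at the cell surface, 4, 4, 4 and 3 had a start-site peak (DMSO, then UNC0638, in CK1750 and then in Tnm2). The urokinase receptor gene Plaur had start-site peaks in each list with a best score at percentile 98.8 to 99.6 of the list. Plau, which encodes urokinase, had one in each list, as had Bsg, a membrane protein known to induce metalloproteinases. Plat, the tissue plasminogen activator gene, had one in the lists other than Tnm2 with UNC0638. The plasminogen gene Plg and Reck, an inhibitor of metalloproteinases at the membrane, had none. The share of protein-coding genes with a start-site peak was 41.3% to 50% over the lists.

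The mast cell protease and granzyme genes of chromosome 14, a second cluster of protease genes, had a start-site peak for 2, 2, 3 and 1 of 14 genes (DMSO, then UNC0638, in CK1750 and then in Tnm2). These were Cma1 in each list, Gzme in the lists other than Tnm2 with UNC0638, and Gzmn only in Tnm2 with DMSO (score 53.53). As given above, 41.3% to 50% of protein-coding genes had a start-site peak.

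Protein-coding genes that lay wholly within a stretch without a peak were counted in the joined lists. The Mmp stretch from Mmp13 to Mmp27 held 7 of them, and 174 of 3965 stretches with such a gene held more. The stretches with most genes were 2 on chromosome 2, with 97 and 94 genes of which 94 and 91 were olfactory receptor (Olfr) genes, and 1 on chromosome 7 with 75 genes, of which 43 were vomeronasal receptor (Vmn) genes. The stretch with Mmp20 and Mmp7 measured 167.9 kb and held 2 protein-coding genes.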
